A study of Mus musculus with 32 samples.

Results

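The acute phase proteins are plasma proteins that the liver releases in large amounts when tissue is injured or infected. The 9 genes of this class followed here on every liver array were the serum amyloid A genes Saa1, Saa2 and Saa3, the orosomucoid genes Orm1 and Orm2, haptoglobin (Hp), hemopexin (Hpx), lipocalin 2 (Lcn2) and leucine-rich alpha-2-glycoprotein 1 (Lrg1). A member was any probe set whose only gene symbol in the platform annotation was one of these names. This found 11 of the 10833 probe sets with a single symbol, for 8 of the 9 genes, since no probe set carried Saa1 alone. All 11 had a mean above the filter on dim probe sets, so that none was dropped. The liver RNA came from 32 aged male B6C3F1 mice, hybrids of a long-lived cross, with 1 array per mouse and 4 mice in each of 8 groups. CON mice ate 93 kcal weekly of a defined control diet. LTCR mice had 52.2 kcal weekly of a restriction diet from 5 months of age. CR8 mice were moved at 20 months to the restriction diet, at 77 kcal weekly over 2 weeks and then at 52.2 kcal weekly over 6 weeks. The remaining mice had the control diet for 8 weeks with metformin (MET), which restrains glucose output by the liver, with glipizide (GLIP), a sulfonylurea that releases insulin, or with both drugs (GM). Others had rosiglitazone (ROS), an agonist of the nuclear receptor PPAR gamma, or a soy isoflavone extract (SOY). The doses are not given in the sources used here. Every mouse, controls included, had been housed alone since 5 months of age and was killed at 22 months after 48 hours without food, and the labels state that no pathology was seen in the mice used.

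In the acute phase response, cytokines from activated macrophages reach hepatocytes. IL-6 signals through gp130 and STAT3, and IL-1 and TNF through NF-kB, while C/EBP beta and C/EBP delta bind the promoters of many of the induced genes. Saa1 and Saa2 encode apolipoproteins of high density lipoprotein and are among the most strongly induced genes of mouse liver, whereas Saa3 is also made by macrophages and fat cells. Orm1 and Orm2 encode alpha-1-acid glycoproteins, carriers of basic lipophilic compounds. Hp binds free hemoglobin, Hpx binds free heme, and Lcn2 binds the iron-carrying siderophores of bacteria, so that these proteins keep iron from microbes. Lrg1 encodes a secreted glycoprotein that modifies TGF beta signalling in blood vessels.

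The probe sets differed widely in brightness and in what they may detect. Hp and the brighter Hpx set were among the 47 brightest probe sets of every array. Saa2 had a bright probe set, whose suffix marks probes shared by a gene family, and a dimmer one. RefSeq's gene table (GRCm38.p6) lists Saa1 as a synonym of Saa2 and Saa2 as a synonym of Saa1, so signal named Saa2 here may come from either copy. Hpx also had a less bright set, and Lcn2 a bright and a dim one. A gene's name alone stands below for its brightest set. The pair of Lcn2 probe sets did not follow each other: their deviations from the group means correlated at r = 0.17 over 32 arrays, against 0.88 for the Saa2 pair and 0.73 for the Hpx pair. A further probe set carried the symbols Orm1 and Orm2 together and was no member. In RefSeq, Orm1, Orm3 and Orm2 lie next to each other on chromosome 4, and Saa3, Saa4, Saa-ps, Saa1 and Saa2 on chromosome 7, so cross-hybridization within both families could not be told apart from expression of the named copy.

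The 250 bases before a transcript start of 7 of the 9 genes were read from RefSeq's promoter table (GRCm38.p6) because the members moved together on single arrays, and 4 are shown: the most variable genes Saa2, Orm2 and Lcn2, and Lrg1 for contrast. Windows are 5′ to 3′ on the gene's strand, and capitals mark matches to the C/EBP pattern TTNNGCAA on either strand.
Saa2, chr7:46751583-46751832, plus strand: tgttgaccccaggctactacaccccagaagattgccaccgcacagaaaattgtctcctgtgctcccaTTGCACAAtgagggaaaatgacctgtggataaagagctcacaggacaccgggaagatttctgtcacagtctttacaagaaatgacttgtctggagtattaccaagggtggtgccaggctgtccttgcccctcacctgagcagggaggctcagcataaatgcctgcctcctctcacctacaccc
Orm2, chr4:63362199-63362448, plus strand: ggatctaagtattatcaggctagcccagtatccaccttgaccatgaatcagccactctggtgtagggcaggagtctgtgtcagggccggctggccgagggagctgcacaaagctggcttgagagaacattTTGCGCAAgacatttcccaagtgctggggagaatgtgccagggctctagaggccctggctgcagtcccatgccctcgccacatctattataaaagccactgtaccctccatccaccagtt
Lcn2, chr2:32387740-32387989, minus strand: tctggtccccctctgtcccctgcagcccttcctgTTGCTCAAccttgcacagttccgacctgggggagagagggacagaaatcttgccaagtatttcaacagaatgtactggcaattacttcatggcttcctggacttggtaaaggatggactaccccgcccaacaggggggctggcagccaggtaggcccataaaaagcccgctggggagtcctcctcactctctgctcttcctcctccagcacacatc
Lrg1, chr17:56121947-56122196, minus strand: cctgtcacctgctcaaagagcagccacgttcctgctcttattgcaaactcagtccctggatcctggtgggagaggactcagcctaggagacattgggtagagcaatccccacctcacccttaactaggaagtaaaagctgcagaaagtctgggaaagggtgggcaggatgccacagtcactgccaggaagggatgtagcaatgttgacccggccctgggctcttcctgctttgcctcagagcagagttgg
The pattern began 183 bases before the start in Saa2, 120 in Orm2 and 216 in Lcn2, and was not in the Lrg1 window. It also began 182 bases before the start in Saa1, 99 in Saa3 and 200 in Hpx. For Saa1 and Saa3 the start in that table lies inside the range of the gene in RefSeq's gene table, so that the Saa3 window lies wholly and the Saa1 window mostly within the gene. Of 32817 windows of the same length in the table, 9.57% held it. A STAT pattern, TTCNNNGAA, also searched on either strand, was in 7.01% of windows and in none of the 7 read here. The Saa1 and Saa2 windows were identical at 94.8% of aligned positions and the Saa1 and Saa3 windows at 52.2%. These matches describe letters only, and binding was not measured.

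Columns had been scaled to a common trimmed mean, with medians between 144.8 and 170.1 intensity units. The median correlation of an array with the others of its group lay between 0.958 and 0.973 over the 7357 tested probe sets. Hepatocyte markers were bright on every array, with a summed intensity of 7 genes between 143013 and 209875. Skeletal muscle transcripts summed to between 8494.5 and 24376.5 on 5 arrays, CON 3, CR8 1, CR8 2, ROS 4 and SOY 3, and to between 2382 and 3971 on the other 27. In bulk liver, fewer cells of a type and less RNA per cell cannot be told apart.

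The arrays GM 3, ROS 2 and SOY 2, each numbered by its replicate within the group, stood far above all others. The mean over the 8 genes, each by its brightest probe set, of log2(intensity + 27) relative to the CON mean was 2.37 on GM 3, 2.12 on ROS 2 and 1.60 on SOY 2. The other 29 arrays lay between -0.77 and 0.71. GM 3 was the highest of its group in 7 of 8 genes, ROS 2 in 7 of 8 and SOY 2 in 8 of 8, and all 3 were above every CON array in 8 of 8. Over all tested probe sets these arrays were the highest of their group in only 27.6%, 26.7% and 26.2%. Lesser single arrays were GM 4 at 0.71, GLIP 1 at 0.48 and CR8 3 at 0.47. These arrays were picked out after their values were seen.

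**Figure D1:**
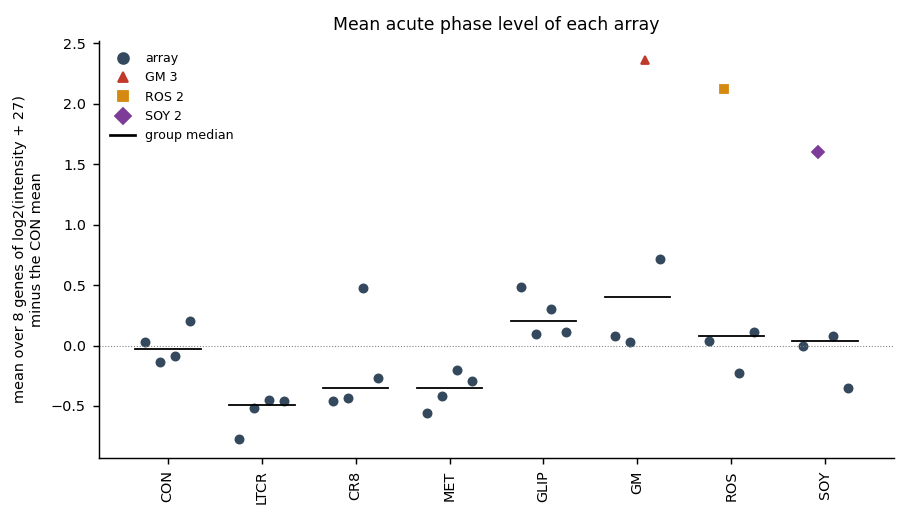
Each point is 1 array, plotted by group against the mean over 8 acute phase genes of log2(intensity + 27) minus the CON mean, and the black lines are group medians. GM 3 at 2.37, ROS 2 at 2.12 and SOY 2 at 1.60 lie far above the rest of their groups, while the 4 LTCR arrays and the 4 MET arrays lie below all 4 CON arrays.

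The group means of this level were 0 ± 0.15 in CON, -0.55 ± 0.15 in LTCR, -0.17 ± 0.44 in CR8, -0.37 ± 0.15 in MET, 0.25 ± 0.18 in GLIP, 0.80 ± 1.09 in GM, 0.51 ± 1.08 in ROS and 0.33 ± 0.87 in SOY (SD, n = 4). The medians of ROS and SOY, 0.07 and 0.04, were close to that of CON at -0.03, so their higher means came from 1 array each. The GM median was 0.40, with GM 1 and GM 2 at 0.08 and 0.03. LTCR and MET lay wholly below CON. The LTCR mean was carried by Lcn2, Saa2 and Saa3: the median over the 8 genes of the LTCR difference from CON was -0.10, with 4 of 8 above 0. The same median in MET was -0.49, with 2 of 8 above 0. No test was made on this mean, because the genes were chosen with earlier results known.

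**Figure D2:**
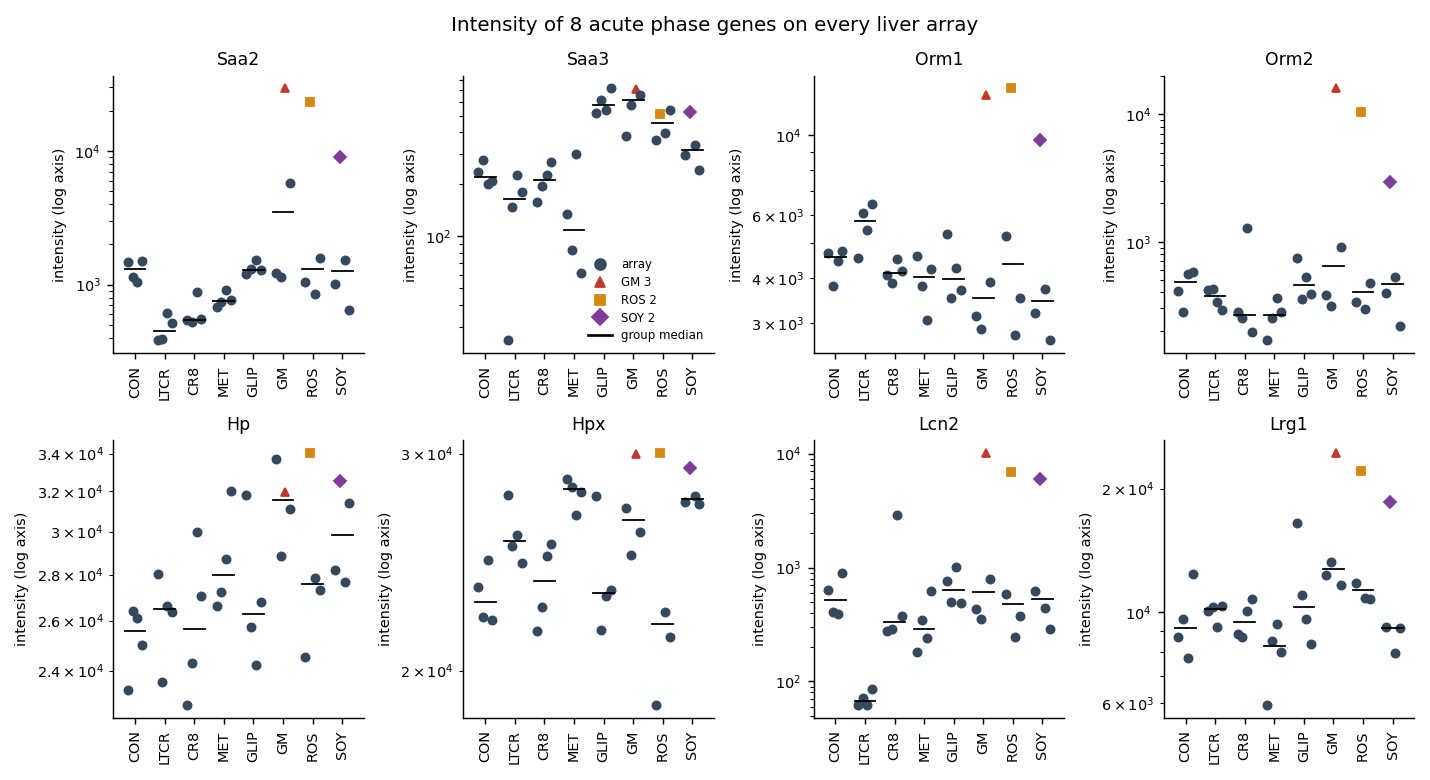
Each panel is 1 gene by its brightest probe set, with intensity on a log axis, 1 point per array, the 8 groups along the horizontal axis and group medians as black lines. GM 3, ROS 2 and SOY 2 stand above their groups for Saa2, Orm1, Orm2, Lcn2 and Lrg1, and Saa3 is higher on all arrays of GLIP, GM and ROS than on any CON array.

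Among the serum amyloid A genes, Saa2 by its bright probe set was low in the restricted and metformin groups and very high on the 3 arrays. Its values were 1468, 1137, 1052 and 1502 on the CON arrays, 382, 390.5, 615 and 512 in LTCR and 539, 522, 878 and 549.6 in CR8. They were 679, 735, 904 and 760.3 in MET and 1192, 1302, 1519 and 1290.2 in GLIP. All 12 arrays of LTCR, CR8 and MET were therefore below all 4 CON arrays, and GLIP overlapped CON. In the remaining groups the values were 1218, 1138, 29476 and 5814 in GM, 1050.5, 23158, 844 and 1573 in ROS and 1003, 9039.5, 1518 and 646 in SOY. GM 3 was 3.86 above the mean of the other GM arrays on the log2(intensity + 27) scale, ROS 2 4.34 and SOY 2 3.15 above theirs. GM 4 was the fourth highest of all arrays. The dimmer Saa2 probe set gave 6203.6 on GM 3 and 3157 on ROS 2, but 515 on SOY 2, and lay between 211.5 and 579 on the other 29 arrays. In LTCR, CR8 and MET that dimmer set overlapped CON, with log2 differences of -0.38, -0.26 and -0.07. The neighbouring pseudogene Saa-ps, at most 51.8 on 29 arrays, read 535 on GM 3, 247 on ROS 2 and 80.3 on SOY 2. Saa4, which encodes the constitutive form, read 4574, 1941 and 2285 on the same arrays against 808 to 1718 elsewhere.

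Saa3 was high in whole groups, and its single high and low arrays were only in part those of the other members. The CON arrays read 235, 276, 200.4 and 209, LTCR 25.0, 148, 225 and 180.1, and CR8 157, 195, 228 and 269.8. MET read 136, 83.5, 301 and 61.2, a spread that reached above and below CON. GLIP read 517, 614, 536 and 719.5, GM 383, 576, 713 and 661, ROS 360.0, 511, 398 and 540.5, and SOY 296, 523, 338 and 243. Every array of GLIP, GM and ROS was above every CON array, and SOY overlapped CON. GM 3 exceeded the next GM array only by 713 against 661, and ROS 2 was not the highest of ROS. SOY 2 was the highest of SOY, at 523 against at most 338, or 0.79 above the mean of the others on the log2 scale. MET 3 stood 1.49 above and LTCR 1 2.01 below the mean of the others in their groups. Leaving the 3 arrays out left the pooled within-group SD of Saa3 at 0.55, from 0.54 on the log2 scale.

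The orosomucoid genes rose steeply on the single arrays. Orm2 read 409, 282, 558 and 578 in CON, 414, 426, 338 and 290.2 in LTCR and 281, 251, 1283 and 195 in CR8, where CR8 3 was 2.30 above the mean of the others on the log2 scale. It read 168, 251, 364 and 281 in MET and 743, 358, 528 and 387 in GLIP, both overlapping CON. It read 382, 314, 15989 and 902 in GM, 334, 10501, 294 and 476 in ROS and 398, 2967, 529 and 219 in SOY. GM 3 was thus 4.98, ROS 2 4.76 and SOY 2 2.95 above the mean of their groups' other arrays on the log2 scale, the widest such gaps of any member on GM 3 and ROS 2. Orm1, which is brighter at rest, read 12984 on GM 3, 13521 on ROS 2 and 9685 on SOY 2, gaps of 1.97, 1.86 and 1.60. Without those arrays GM read 3145, 2886 and 3908, ROS 5232, 2773 and 3520.0, and SOY 3203, 3726 and 2683, and 7 of these 9 values were below the lowest of CON, which read 4712, 3796, 4460.3 and 4750.4. LTCR read 4566, 6068, 5453 and 6454, all above the CR8 arrays at 4069.7, 3884, 4518 and 4193. Orm3, which lies between them in the genome, read 1433, 991 and 723 on GM 3, ROS 2 and SOY 2 and 69.3 to 489 elsewhere.

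Among the genes whose proteins bind iron, heme or hemoglobin, Lcn2 combined a group difference with single high arrays. The LTCR arrays read 62.6, 71.0, 62.0 and 85.6, below every array of any other group. CON read 628, 404, 388 and 904, CR8 277, 286, 2906 and 379, MET 183, 343, 239 and 624 and GLIP 766, 502, 1002 and 484. GM read 432, 355, 10118 and 793, ROS 585, 6951, 245 and 378 and SOY 628, 6024, 438 and 291. The lowest Lcn2 value outside LTCR was 183, in MET, against a highest of 85.6 within it. GM 3 was 4.28, ROS 2 4.10, SOY 2 3.72 and CR8 3 3.12 above the mean of the others in their group on the log2 scale. The dim Lcn2 set lay between 208 and 365 on every array and showed none of this.

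Hp and Hpx were near the top of the intensity range on every array and moved little. Hp read 23274, 26409.7, 26131 and 25023 in CON and 33717, 28830.2, 31973 and 31098 in GM, so that all GM arrays were above all CON arrays and GM 3 was not the highest. Its highest value was 34029.9 on ROS 2, where the other ROS arrays read 24525, 27866 and 27304. MET read 26605, 27239.8, 28710.5 and 32033 and SOY 28221, 32559, 27646 and 31421, each wholly above CON. Hpx read 23360.1, 22108, 24570.4 and 21999.9 in CON, 28607, 28203, 26749 and 27939 in MET and 27394, 29192, 27703 and 27313 in SOY, which also lay wholly above CON. ROS 2 read 30033 for Hpx, and the other ROS arrays 18751, 22312 and 21301. The less bright Hpx probe set read 16583 on GM 3, 17033 on ROS 2 and 16341 on SOY 2, and 7816 to 13028 on the remaining 29 arrays. On so bright a probe set a rise may be compressed, and that was not tested.

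Lrg1 read 8696, 9619, 7719 and 12414 in CON and 5941, 8513, 9371 and 7997 in MET, which overlapped. It read 16469, 10990.3, 9621 and 8373 in GLIP and 12285, 13254, 24412 and 11674 in GM. It read 11798, 22091, 10805 and 10761 in ROS and 9181, 18539.9, 7965 and 9170.2 in SOY. GM 3, ROS 2 and SOY 2 were each about 1 log2 unit above the mean of their groups' other arrays, at 0.98, 0.99 and 1.08. LTCR, between 9188 and 10377, and CR8, between 8720.3 and 10746, overlapped CON. All GM arrays, GM 3 or not, were above all MET arrays.

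The question for each group was whether its 4 arrays differed from those of CON, and for the pairs of restricted and of combined drug groups whether these differed from each other. Differences below are on the log2(intensity + 27) scale with the standard error of 1 limma fit over all 32 arrays, and adjusted p is Benjamini-Hochberg over the 7357 probe sets of a comparison. Because the fit shares 1 spread over 8 groups, the 3 high arrays entered the error of every comparison. Pooled within-group SDs fell, when these arrays were left out, from 1.43 to 0.77 for Lcn2, from 1.45 to 0.62 for Orm2, from 1.26 to 0.51 for Saa2 and from 0.60 to 0.25 for Orm1. The fit over the other 29 arrays, chosen after the values were seen, is given beside each result it changes. The labels do not say that the mice were separate litters or runs, so p-values cover the spread between these mice and arrays.

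Lifelong restriction went with lower Lcn2 and Saa2 by their bright probe sets. The dim Lcn2 set differed by 0.09 and the dimmer Saa2 set by -0.38 (limma, adjusted p = 0.642 and 0.718), and both overlapped CON. Lcn2 averaged 70.3 ± 11 in LTCR and 581 ± 242 in CON (SD, n = 4), a difference of -2.57 ± 0.93 that just missed the threshold (limma, adjusted p = 0.0506). It passed over 29 arrays (limma, adjusted p = 0.000536) and in a fit to LTCR and CON alone (limma, adjusted p = 0.000263). Saa2 averaged 475 ± 111 against 1290 ± 229 (SD, n = 4), a difference of -1.40 ± 0.82 that did not pass over 32 arrays (limma, adjusted p = 0.248) but did over 29 (adjusted p = 0.00349) and in the fit to both groups alone (adjusted p = 0.000611). Thus limma called 0 of the 11 member probe sets here, while it called 19.3% of all probe sets. At an unadjusted p under 0.05 were 2 members and 2351 of 7357 probe sets. The arrays of LTCR and CON did not overlap in 2 of 11 member probe sets, both lower, against 21.2% of all tested. None of these shares of the members was above that of all tested probe sets. The median over the 11 was -0.22, with 5 of 11 above 0, beside 0.00 over all tested. Saa3 differed by -0.79 ± 0.35, with arrays that overlapped, and Orm1 by 0.34 ± 0.39. The 12 measured Kupffer cell and macrophage genes had a summed intensity of 3057 to 4440 in LTCR and 4952 to 6042 in CON, with Mpeg1 lower by -1.17 and Cd14 by -0.63 (limma, adjusted p = 0.00426 and 0.0111). The part of these cells in the Lcn2 and Saa2 differences was not tested.

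Against the mice restricted for 8 weeks, LTCR had lower Lcn2 by -2.58 ± 0.93 (limma, adjusted p = 0.0677). The difference passed over 29 arrays (adjusted p = 0.00123) and in the fit to LTCR and CR8 alone (adjusted p = 0.0345). Orm1 was 0.42 ± 0.39 higher, which passed only in the fit to both groups alone (limma, adjusted p = 0.0456). These 2 of 11 probe sets were those without overlap, beside 16.1% of all tested, and limma called 0 members, beside 12% of all. At an unadjusted p under 0.05 were 1 member and 1947 of 7357 probe sets. CR8 against CON differed in Saa2 by -1.04 ± 0.82 (limma, adjusted p = 0.697, and 0.0523 in the fit to both groups alone), with 622 ± 171 against 1290 ± 229 (SD, n = 4). That was the single member without overlap, beside 7.2% of all probe sets, and limma called 0 members, beside 0.544% of all. An unadjusted p under 0.05 was found for 0 members and 851 of 7357 probe sets. Lcn2 in CR8 turned on CR8 3: the difference from CON was 0.01 with it and -0.76 without it. The summed Kupffer cell genes were 3161 to 4811 in CR8, below CON, and were highest on CR8 3.

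**Figure D3:**
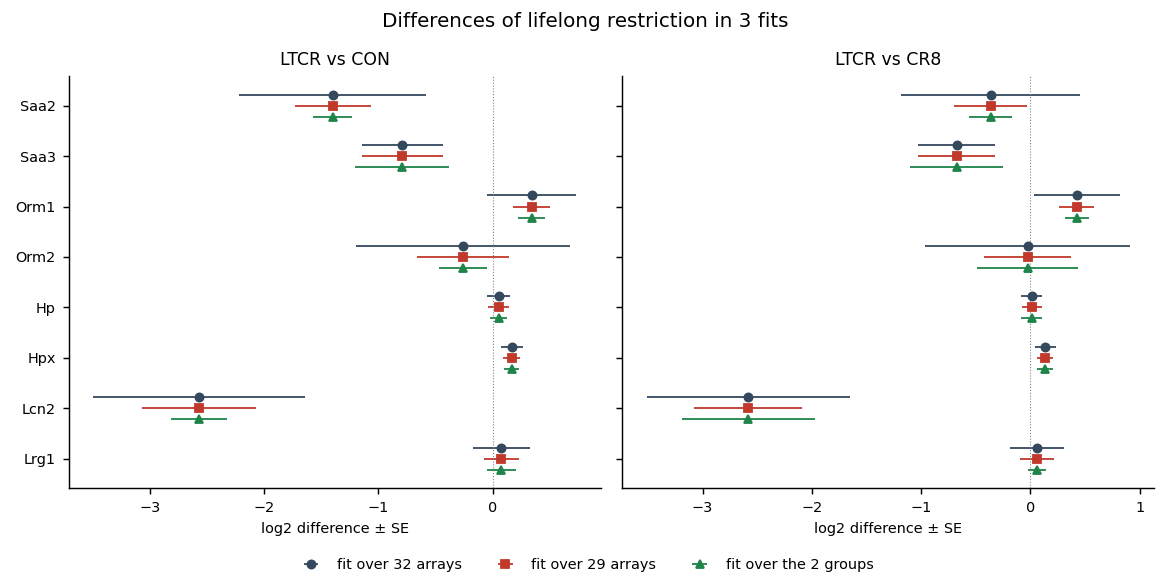
Points are log2 differences of LTCR from CON and from CR8 for 8 genes, with standard errors as bars, in 3 limma fits shown by colour and shape. The differences are the same in all 3 fits, and the bars of Lcn2, Saa2 and Orm1 are longest in the fit over 32 arrays, where Lcn2 is at -2.57 ± 0.93 from CON.

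Glipizide, alone or with metformin, and rosiglitazone went with higher Saa3. It averaged 597 ± 92.1 in GLIP, 583 ± 145 in GM and 453 ± 86.9 in ROS against 230.0 ± 33.7 in CON (SD, n = 4). The differences were 1.28 ± 0.35 (limma, adjusted p = 0.192), 1.22 ± 0.35 (adjusted p = 0.0668) and 0.89 ± 0.35 (adjusted p = 0.485), and none passed in the fit over all groups. In fits to each pair of groups alone, GLIP against CON passed (limma, adjusted p = 0.00772), while GM (0.0576) and ROS (0.11) against CON did not. These 3 comparisons share the CON arrays. The summed Kupffer cell genes were 4579 to 15849 in GLIP, 3920.2 to 7057 in GM and 4273 to 6743 in ROS, each overlapping CON, and their part was not tested. In GLIP, Saa3 was 1 of 11 members without overlap, beside 5.44% of all probe sets. In ROS it was also 1 of 11, beside 4.85%. Limma called 0 members in either, beside 0.136% of all probe sets in GLIP and 0.136% in ROS. With an unadjusted p under 0.05 there was 1 member in each, beside 689 of 7357 probe sets in GLIP and 619 in ROS.

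In GM, Hp and Hpx were also without overlap above CON. Hp averaged 31404 ± 2032 against 25209.5 ± 1423 (SD, n = 4), a difference of 0.32 ± 0.10 (limma, adjusted p = 0.0845). Hpx differed by 0.23 ± 0.10 (limma, adjusted p = 0.209). Both hung on the scaling of the arrays: with equal medians Hp stood at 0.46 and Hpx at 0.37 and passed together with Saa3 (limma, adjusted p = 0.0162, 0.0431 and 0.0193), and after quantile normalization they stood at 0.10 and 0.07. With the dim Lcn2 set, which was lower, 4 of 11 member probe sets did not overlap, beside 10.5% of all. Limma called 0 members, beside 1.55% of all probe sets, and 5 members and 1304 of 7357 probe sets had an unadjusted p under 0.05. The median over the 11 was 0.63, beside -0.05 over all tested. For the genes that led on GM 3, the group difference fell without that array. Saa2 went from 1.61 ± 0.82 with it to 0.65 ± 0.36 without the 3 arrays, Orm2 from 1.36 ± 0.94 to 0.12 ± 0.43, Lcn2 from 0.93 ± 0.93 to -0.13 ± 0.54 and Orm1 from 0.07 ± 0.39 to -0.42 ± 0.17. Lrg1 kept more of its difference, going from 0.63 to 0.39. For Saa2, GM 4 read 5814, while GM 1 and GM 2 at 1218 and 1138 lay within the CON range.

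The same held in ROS and SOY. In ROS, without ROS 2, the difference from CON went from 0.90 to -0.18 for Saa2, from 0.92 to -0.27 for Orm2, from 0.53 to -0.50 for Lcn2 and from 0.22 to -0.25 for Orm1. For Lrg1 it went from 0.48 to 0.23 and stayed positive. In SOY, without SOY 2, it went from 0.44 to -0.35 for Saa2, from 0.47 to -0.27 for Orm2, from 0.61 to -0.32 for Lcn2 and from 0.16 to -0.11 for Lrg1. None of these passed the threshold in either fit. SOY kept higher Hp, by 0.25 ± 0.10 with SOY 2 and 0.21 ± 0.10 without, and higher Hpx, by 0.28 ± 0.10 and 0.26 ± 0.08 (limma, adjusted p = 0.494 and 0.444 over 32 arrays for Hp and Hpx). After quantile normalization these were 0.07 for Hp and 0.15 for Hpx. These and the other Hpx set were 3 of 11 members without overlap in SOY, beside 5.36% of all probe sets. Limma called 0 members and 0% of all probe sets in SOY, with 2 members and 601 of 7357 probe sets at an unadjusted p under 0.05.

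**Figure D4:**
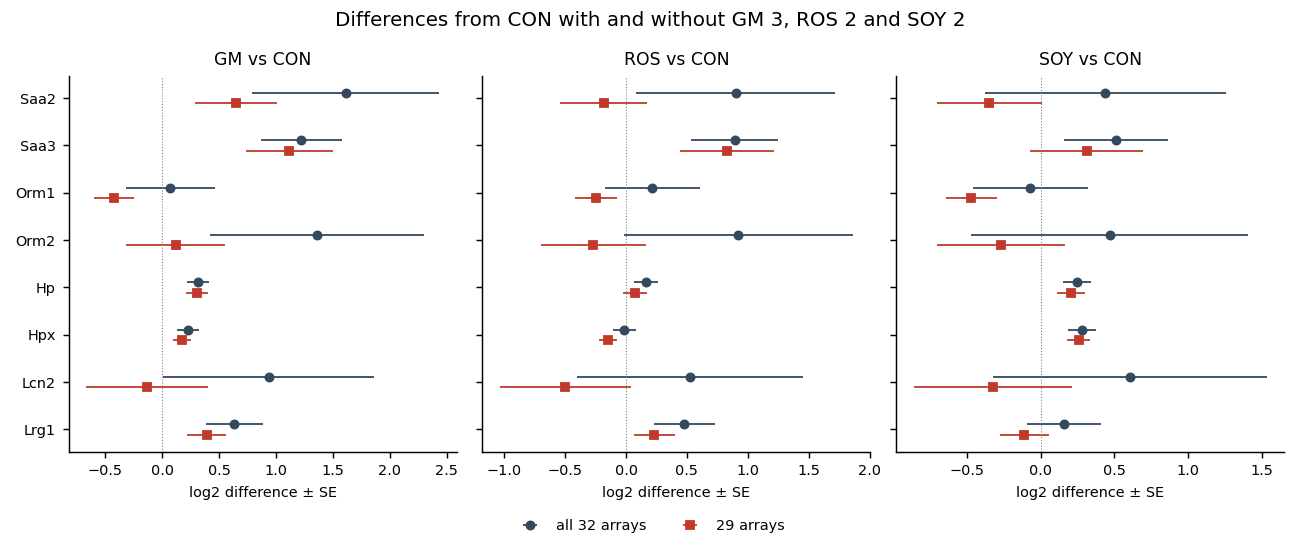
Points are log2 differences from CON for 8 genes in GM, ROS and SOY, with standard errors as bars, in limma fits over all 32 arrays (dark circles) and over the 29 arrays without GM 3, ROS 2 and SOY 2 (red squares). Saa2, Orm1, Orm2, Lcn2 and, by less, Lrg1 move left in all 3 panels, and Saa3, Hp and Hpx move least in GM and SOY.

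Metformin went with lower Saa2 and with higher Hp and Hpx by their brightest probe sets, without any call over all arrays. Saa2 averaged 769.5 ± 95.7 in MET against 1290 ± 229 in CON (SD, n = 4), a difference of -0.72 ± 0.82 (limma, adjusted p = 0.708, and 0.052 in the fit to MET and CON alone). Hpx averaged 27874 ± 799 against 23009.6 ± 1210 (SD, n = 4), a difference of 0.28 ± 0.10 (limma, adjusted p = 0.098) that passed over 29 arrays (adjusted p = 0.0284). Hp differed by 0.18 ± 0.10 (limma, adjusted p = 0.322), and after quantile normalization Hp stood at -0.03 and Hpx at 0.08. These were 3 of 11 members without overlap, beside 10% of all probe sets. Limma called 0 members, beside 4.17% of all. Of the members 2, Hpx and Saa3, had an unadjusted p under 0.05, as did 1330 of 7357 probe sets. Saa3 differed by -0.76 ± 0.35 (limma, adjusted p = 0.248), with arrays that overlapped. The dimmer Saa2 set differed by -0.07 and the less bright Hpx set by -0.10, and both overlapped CON.

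The combination stood above metformin alone, where limma made its only calls among the members, 2 of 11 beside 2.62% of all probe sets. Saa3 was higher in GM than in MET, at 583 ± 145 against 145 ± 108 (SD, n = 4), by 1.98 ± 0.35 (limma, adjusted p = 0.00375), and the difference was 1.88 ± 0.39 over 29 arrays (adjusted p = 0.016). Lrg1 was higher by 0.90 ± 0.25 (limma, adjusted p = 0.0462), and by 0.66 ± 0.17 over 29 arrays, where it missed (adjusted p = 0.0512). Both missed in the fit to GM and MET alone (limma, adjusted p = 0.089 and 0.134). With each GM or MET array left out in turn, Saa3 passed in 8 of 8 fits and Lrg1 in 1 of 8, with limma adjusted p between 0.0459 and 0.186, the highest without GM 3. Saa2 was higher by 2.33 ± 0.82 (limma, adjusted p = 0.123), or 1.36 ± 0.36 over 29 arrays (adjusted p = 0.0542). These genes and the dim Lcn2 set, which was lower, made 4 of 11 members without overlap, beside 8.56% of all. The median over the 11 was 0.90, beside -0.01 over all tested. Against glipizide alone, GM differed without overlap in 1 of 11, the dim Lcn2 set, beside 5.04% of all probe sets. Limma called 0 members and 0% of all there, with 2 members and 675 probe sets at an unadjusted p under 0.05.

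Members moved together to different degrees within groups. Over 28 pairs of genes the median correlation of deviations from group means was 0.59 over 32 arrays and 0.35 over the 29 without the 3 high arrays. Orm2 with Saa2 and Orm2 with Lcn2 were the closest pairs, at 0.937 each over 32 arrays and at 0.81 and 0.85 over 29. Hp and Hpx had 0.73 and 0.68. Saa3 was the least related to the others, between -0.04 and 0.37 over 32 arrays. These correlations share the arrays, their scaling and, over 32, the 3 high arrays.

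The 8 non-member genes whose within-group deviations most resembled the members' mean were Clu, Apcs, Qsox1, Cxcl1, Itih3, Rnase4, Dap and Pros1, at r between 0.85 and 0.90 over 32 arrays and 0.59 and 0.76 over 29. Clu, which encodes the secreted chaperone clusterin, read 16042 on GM 3, 13751 on ROS 2 and 13002 on SOY 2 and 8178 to 11066 elsewhere. Apcs, the gene of serum amyloid P component, read 14132, 15028 and 10485 against 3750.4 to 9200.3. Cxcl1, a chemokine that attracts neutrophils, read 3635, 1981 and 2384 against a median of 535 on the other arrays. By single gene, the 2 most alike were Pros1 and Qsox1 for Lcn2, Itih3 and Lbp for Lrg1, Dap and Apcs for Orm1, Qsox1 and Cxcl1 for Orm2, and Clu and Serping1 for Saa2, at r between 0.84 and 0.89. They were Nfs1 and F12 for Hp, Bsg and Apcs for Hpx, and Psmc3 and Skiv2l for Saa3, at r between 0.65 and 0.75.

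Other genes of the response moved with the single arrays in part. Of 31 further positive acute phase genes, 21 were tested, and GM 3 was the highest of its group in 16, ROS 2 in 15 and SOY 2 in 17. Their mean log2 difference from CON was 0.82 on GM 3, 0.30 on ROS 2 and 0.53 on SOY 2, less than that of the members. Serpina3n, a protease inhibitor, read 18371, 11947 and 10307 against 5038 to 9069 elsewhere, and Lbp, which binds bacterial lipopolysaccharide, read 5344, 3942 and 5621 against 2011 to 3657. Hamp, which encodes the iron hormone hepcidin, did not follow: it read 12599 on GM 3 and 16750 on SOY 2 but 219 on ROS 2, against 7092 to 20274 elsewhere. In LTCR limma called 5 of the 21 lower than CON and 0 higher, beside 19.3% of all probe sets called, and the list median was -0.22 beside 0.00 over all tested. Among the 5 were the metallothionein gene Mt2 by -2.50 (adjusted p = 0.000609), Il1rn by -0.86 (adjusted p = 0.00547) and Mt1 by -1.67 (adjusted p = 0.0109). In MET 2 were lower, beside 4.17% of all called, the fibrinogen chains Fga by -0.45 (limma, adjusted p = 0.0256) and Fgb by -0.51 (adjusted p = 0.047). Fgb was also the single call in GM against MET, by 0.57 (limma, adjusted p = 0.0347), beside 2.62% of all probe sets. LTCR against CR8 had Mt1 and Mt2 lower, beside 12% of all. The other 6 comparisons had 0 of 21 by limma, beside 0% to 1.55% of all probe sets. At an unadjusted p under 0.05, GM had 5, ROS 5 and CR8 3 against CON, beside 1304, 619 and 851 of 7357 probe sets. SOY had 2 and GLIP 0 against CON, beside 601 and 689, and GM against GLIP had 2, beside 675.

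**Figure D5:**
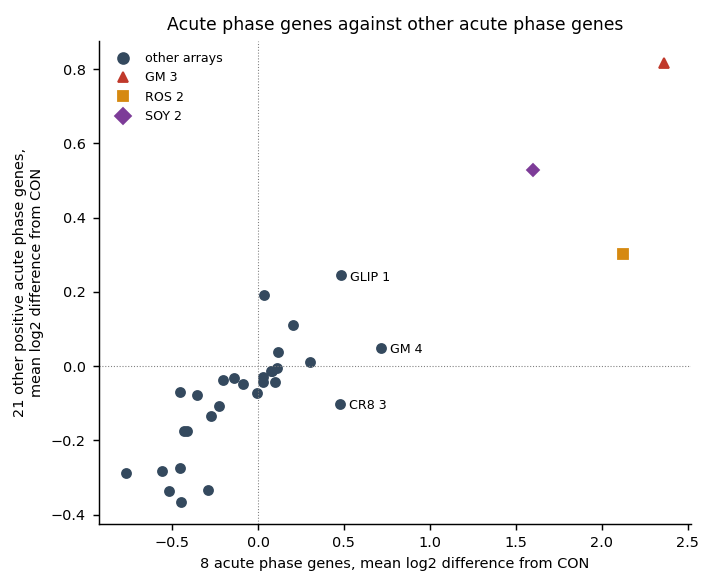
Each point is 1 array, with the mean log2 difference from CON of the 8 acute phase genes on the horizontal axis and that of 21 other positive acute phase genes on the vertical axis. GM 3, ROS 2 and SOY 2 lie at the far right with 0.82, 0.30 and 0.53 on the vertical axis, and of the next arrays to the right GLIP 1 lies at 0.25, GM 4 at 0.05 and CR8 3 at -0.10.

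As a set, genes that fall in the acute phase response were not below CON on these arrays. Of 15 tested negative acute phase genes, GM 3 was the lowest of its group in 6, ROS 2 in 3 and SOY 2 in 6. Their mean difference from CON was 0.24, 0.12 and 0.06. On the other arrays it was 0.10 to 0.23 in GM, 0.02 to 0.13 in ROS and 0.09 to 0.12 in SOY. Rbp4 on GM 3 and Serpinf1 on ROS 2 were below all arrays outside the 3, at 18697 against 18814 and 6977 against 8037. Ttr, Itih1, F12 and Alas2 on GM 3 and Itih1 on ROS 2 were above all arrays outside the 3. In LTCR limma called 8 of the 15 higher and 3 lower than CON, beside 19.3% of all probe sets, led by Hnf4a at 0.98 (adjusted p = 0.000271), Ttr at -0.86 (adjusted p = 0.000271) and Rbp4 at 0.37 (adjusted p = 0.000615). Limma also called 2 of them higher in MET than in CON, Apoa1 and Itih2, beside 4.17% of all probe sets. In GM 2 were called higher than in CON, beside 1.55%. They were F12 by 0.65 (limma, adjusted p = 0.00242) and Ahsg by 0.29 (adjusted p = 0.0191). In LTCR against CR8 limma called Hnf4a and Apoa1 higher and Ttr lower, beside 12% of all probe sets. In GM against MET it called Ttr and F12 higher and Serpina6 lower, beside 2.62%. Of the IL-6, IL-1 and TNF pathway, 41 genes were on the array and 30 were tested, and GM 3 was the highest of its group in 17, ROS 2 in 19 and SOY 2 in 14. Socs3, the feedback inhibitor of IL-6 signalling, read 519 on GM 3 and 509 on ROS 2 against at most 272 elsewhere, and 157 on SOY 2. Cebpb read 3963, 2259 and 1638 against 1103 to 2881, so that GM 3 alone was outside the range of the other arrays. Tnfrsf1a was above that range on all 3, at 970.5, 777.8 and 820.5 against at most 774.1. Relb on GM 3 was below it, at 58.1 against at least 112.1. The Il6 probe set itself read 12.8, 7.2 and 8.2 on the 3 arrays, under the added value of 27. In LTCR limma called 2 of the 30 higher and 5 lower, 7 in all, beside 19.3% of all probe sets, led by Jak1 at -0.35 (adjusted p = 0.00171), Nfkbiz at -0.75 (adjusted p = 0.00558) and Cebpa at 0.39 (adjusted p = 0.00596). Cebpa was also called higher in MET than in CON, and Nfkbiz lower in LTCR than in CR8, beside 4.17% and 12% of all probe sets. Of 7 tested hepatocyte genes limma called 6 higher and 1 lower in LTCR than in CON, beside 19.3% of all probe sets. The lists share genes, so their counts are not separate results. Alb, Ttr, Apoa1 and Ahsg are hepatocyte and negative acute phase genes, and Tat is a hepatocyte and glucocorticoid-responsive gene. Mt1 and Mt2 are positive acute phase and glucocorticoid-responsive genes, and Cd14 is a positive acute phase and Kupffer cell gene. The 21 tested glucocorticoid-responsive genes had 10 higher and 5 lower in LTCR than in CON, beside 19.3% of all probe sets. Against CR8 they had 11 higher and 4 lower, beside 12% of all. Gadd45a led, at -3.32 from CON (limma, adjusted p = 1.65e-10). The mean difference of these 21 genes from CON was 0.21 on GM 3, 0.01 on ROS 2 and 0.09 on SOY 2.

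The summed intensity of 7 neutrophil genes was 754 on GM 3, 965 on ROS 2 and 845 on SOY 2. These sums lay within the range of 617 to 1098 over all arrays, but ROS 2 and SOY 2 had the highest of their groups. Only 2 of the 7 genes passed the filter. By single gene, S100a8 at 183, S100a9 at 97.8 and Mpo at 99.3 were highest of all arrays on ROS 2, and Elane at 349 on SOY 2, where the other arrays reached 160.3, 93.3, 87.8 and 329. Of 10 tested Kupffer cell and macrophage genes, ROS 2 was the highest of its group in 8 and SOY 2 in 7, but GM 3 in 1, and Marco lay below the added value on all arrays. Their part in the high levels was not tested. B and plasma cell genes summed to 2548, 1713 and 1457 on the 3 arrays, and to 1165 to 4569 over all arrays. T and NK cell genes summed to 87.4 to 231 over all arrays, and 0 of 5 passed the filter. Skeletal muscle genes on GM 3, ROS 2 and SOY 2 summed to 2388, 3287 and 3051, so that none was among the 5 arrays with muscle transcripts. Exocrine pancreas genes summed to 1715 to 2970.7 and adipocyte genes to 786 to 2147 over all arrays. Limma called 0 of their 6 tested genes in any comparison, beside 0% to 19.3% of all probe sets. At an unadjusted p under 0.05 was 1 gene of each list, in ROS against CON, beside 619 of 7357 probe sets. Of the cholangiocyte list Krt7, Krt19 and Epcam were too dim to pass the filter, so that Krt8 and Krt18 alone were tested. Results for these 2 genes cannot be read as a change in cholangiocytes. Limma called Krt8 and Krt18 lower in LTCR than in CON, by -1.17 (adjusted p = 7.03e-06) and -1.02 (adjusted p = 9.13e-05), beside 19.3% of all probe sets. The summed list read 2184 to 2637 in LTCR against 4594 to 5931.5 in CON. Most of that sum was Krt8 and Krt18, with means of 1239 and 1150 in LTCR. Against CON limma also called Krt8 lower in CR8, by -0.70 (adjusted p = 0.0318), and in ROS, by -0.77 (adjusted p = 0.0329), and Krt18 lower in MET, by -0.93 (adjusted p = 0.00315).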

How the data were processed

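Liver total RNA of 32 mice was hybridised to Affymetrix MG-U74Av2 arrays. The authors deposited 1 linear intensity per probe set and array, already scaled: without the top and bottom 2% of values, column means lay between 500.4 and 500.5. Software and build are not given in the sources used here. Of 12488 probe sets, 66 controls were left out. Intensities were analysed as log2(intensity + 27), 27 being the 20th percentile, which understates changes of dim genes. Probe sets with a mean log2 value above that of 94.2, the 40th percentile, were tested, 7357 in all, whereas 7507 passed with the mean of linear intensities, an alternative chosen after seeing the data. Groups came from sample titles. A single limma 3.58.1 model in R 4.3.3 (lmFit and trended eBayes; residual degrees of freedom 24, prior 4.59) covered all 8 groups. Each of 10 comparisons had a Benjamini-Hochberg threshold of 0.05, and the model was tested on simulated data. A group is non-overlapping where its 4 arrays lie wholly above or below the other 4. The number of arrays limits the precision.

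The members and 13 gene lists (positive and negative acute phase genes, IL-6, IL-1 and TNF signalling, glucocorticoid-responsive genes and markers of 9 cell types) were chosen with earlier results of these data known. A gene stands for its brightest probe set. Named genes were all member probe sets, up to 3 genes per list with the smallest p where any passed, and the non-member genes most alike in deviations from group means. Genes given for the level on single arrays, such as Serpina3n, Lbp, Hamp, Socs3, Cebpb, Il6, Saa4 and Orm3, were chosen after their values were seen. Alternatives were quantile normalization, equal medians, other added values and filters, fits to 2 groups, the replicate number as a block, and arrays left out. Same-numbered arrays of different groups correlated at a median of -0.006 in their deviations from group means, with 10 of 112 pairs above 0.1, so the numbers were not used as pairs.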

Additional observations from a re-analysis of the deposited data

Results flagged for a closer look

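In 6 of 88 groups of 4 arrays, counting each of 11 probe sets in each of 8 groups, the highest array stood apart by Dixon's ratio, its gap to the nearest array over the whole range on the log2(intensity + 27) scale. Chance gives about 1 in 20, and all 6 were on the high side. They were GM 3 for the less bright Hpx set (ratio 0.928), CR8 3 for the bright sets of Saa2 (0.902) and Lcn2 (0.873), ROS 2 for Lrg1 (0.872) and for Orm2 (0.871), and SOY 2 for Lrg1 (0.832). On the linear scale 22 groups did so, all on the high side, 7 on GM 3, 6 on ROS 2, 5 on SOY 2 and 4 on CR8 3. CR8 3 read 2906 for Lcn2 against 277 to 379 on the other CR8 arrays, and 878 for Saa2 against 522 to 550.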

How the results depend on the processing

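Among the values of single probe sets under other settings, 656 kept their direction and their side of the threshold, 18 passed only there, 14 passed no longer and 34 changed sign. Limma called 0 of 11 members in LTCR against CON, but 1 (Lcn2) after quantile normalization, with an added value of 1 or with the filter at the 60th percentile, and 2 in the fit to both groups alone and without GM 3, ROS 2 and SOY 2. With 1 array left out it called 0 to 1, the 1 being Saa3 without LTCR 3. Against CON, 1 was called in MET without the 3 arrays, 1 in GLIP in the fit to both groups alone, and in GM 3 with equal medians and 1 with the added value at the 40th percentile. In LTCR against CR8 it called 1 with an added value of 1, 2 in the fit to both groups alone and 1 without the 3 arrays. In GM against MET, 2 became 1 after quantile normalization, without a filter, without the 3 arrays, without the arrays with muscle transcripts and with the replicate number as a block, 0 in the fit to both groups alone, and 1 to 2 with 1 array left out. The block changed no other count of member calls, and 8 of 32 arrays correlated best with one of their own number. Over all probe sets, calls in the fit to both groups alone fell from 307 to 33 in MET against CON, from 114 to 4 in GM against CON and from 193 to 0 in GM against MET, and with equal medians GM against CON had 413 higher and 19 lower in place of 64 and 50, as the median change moved from -0.05 to 0.09. Signs changed without the 3 arrays, against CON, in GM for Lcn2 (-0.13) and Orm1 (-0.42), in ROS for Saa2 (-0.18), Orm2 (-0.27), Lcn2 (-0.50) and Orm1 (-0.25), and in SOY for Saa2 (-0.35), Orm2 (-0.27), Lcn2 (-0.32) and Lrg1 (-0.11). Other sign changes were in CR8 against CON for Lcn2 with an added value of 1 (-0.0058) and Orm2 without the muscle arrays (0.32), in MET against CON for Hp after quantile normalization (-0.032), and with equal medians for Orm1 in SOY against CON (0.045) and Saa3 in GM against GLIP (0.066). With 1 array left out, Lcn2 ran from -0.76 to 0.32 and Orm2 from -0.81 to 0.046 in CR8 against CON. In GM against CON, Lcn2 ran from -0.13 to 1.44 and Orm1 from -0.42 to 0.30. In ROS against CON, Saa2 ran from -0.18 to 1.39, Orm2 from -0.27 to 1.41, Lcn2 from -0.50 to 1.06 and Orm1 from -0.25 to 0.51. In SOY against CON, Saa2 ran from -0.35 to 0.90, Orm2 from -0.27 to 0.93, Lcn2 from -0.32 to 1.09, Orm1 from -0.47 to 0.14 and Lrg1 from -0.11 to 0.29. Saa3 in GM against GLIP ran from -0.16 to 0.12. The cause of these changes was not tested, beyond the arrays and probe sets that each setting leaves out.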
